A study of Mus musculus with 8 samples.

Results

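The proteasome genes were taken as every array probe whose gene symbol starts with Psma, Psmb, Psmc, Psmd, Psme, Psmf or Psmg followed by a digit. These were 67 of the 25697 probes of the table and stood for 45 of its 16593 genes. Of these genes, 27 had 1 probe and 18 had several, at most 3. Psmd3, Psmf1, Psmg4, Psmb11, Psma8 and Psme2b follow the same naming and were not analysed here. Psmc3ip and Psme3ip1 matched the symbol pattern but encode proteins that bind or are named after a proteasome protein and are not proteasome subunits, so they are described apart. The symbols of all 45 genes matched a RefSeq gene table by Entrez number.

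The muscles were tibialis anterior, at the front of the lower hindlimb, of male C57BL/6 mice aged 8 weeks. They were taken 7 days after a plasmid was transfected into them, with 4 arrays for the p21 plasmid and 4 for the control plasmid. Cdkn1a encodes p21, an inhibitor of cyclin-dependent kinases, and the question is which muscle transcripts differ once it is overexpressed. Both legs were sampled, and nothing in the labels tells which arrays come from the same animal. The p-values therefore rest on array-to-array spread alone, part of which may be technical. Both groups were transfected, so neither shows untouched muscle, and the sources used here name neither the promoter of the plasmid nor the share of fibres that took it up.

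The proteasome is the large protease that degrades proteins tagged with ubiquitin. Its barrel-shaped 20S core has outer rings of alpha subunits and inner rings of beta subunits, some of which cut the substrate, and the 19S cap recognises ubiquitin and unfolds and feeds in the substrate with its ring of ATPases. In cells exposed to interferon gamma, the immunoproteasome subunits Psmb8, Psmb9 and Psmb10 take the place of the cutting subunits Psmb5, Psmb6 and Psmb7, in that order, and shape peptides for display on MHC class I. In skeletal muscle the ubiquitin-proteasome system degrades contractile proteins during wasting.

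All levels are log2 intensities of a bead array, so a difference of 1 is a doubling. A probe's own level depends on its sequence, so levels are compared between samples and not between probes. The median probe of the table read 8.39 and the lowest value was 8.13, so values near 8.2 lie at the floor, where changes are compressed. Levels of groups are means ± SD (n = 4 arrays) and changes are p21 minus control ± SE. A gene is given by its brightest probe unless stated. A probe is called higher or lower where limma's test across all probes gave an adjusted p under 0.05. Cdkn1a itself was higher in every p21 array. Its brightest probe read 10.01 ± 0.19 in controls and 11.44 ± 0.21 in p21 muscles (change 1.43 ± 0.12, adjusted p = 0.00042). The 10 muscle fibre markers averaged 14.79 to 14.83 in the control arrays and 14.67 to 14.76 in the p21 arrays, near the top of the scale. Since the tissue is whole muscle, fewer cells of a type and less RNA per cell cannot be told apart. The number of arrays limits the precision.

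In the test over all probes, the proteasome genes were called about as often as genes of the whole table. Among the brighter probes alone they were called less often. Of the 67 probes, 1 was higher in p21 muscle and 2 were lower, all from different genes: Psmd10 rose, and Psme4 and Psmd11 fell. Over the whole table, 3.68% of probes were called higher and 4.35% lower, and by brightest probe per gene 4.24% and 4.79% of genes. The counts of 1 and 2 among 45 genes are near those shares and are no result about the complex as a whole. In a refit over the 12848 probes brighter than the median probe, 58 proteasome probes took part. There, 1 of the 58 was called higher and 3 lower, smaller shares than the 9.92% and 13.0% of all probes in that refit. This difference was not tested. The 4 control and 4 p21 values did not overlap in 4 probes that were higher and 4 that were lower, against 7.41% and 9.34% of all probes. The median change over the 45 genes was 0.03, against -0.004 over all probes, with 29 genes above 0 and 16 below.

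**Figure D1:**
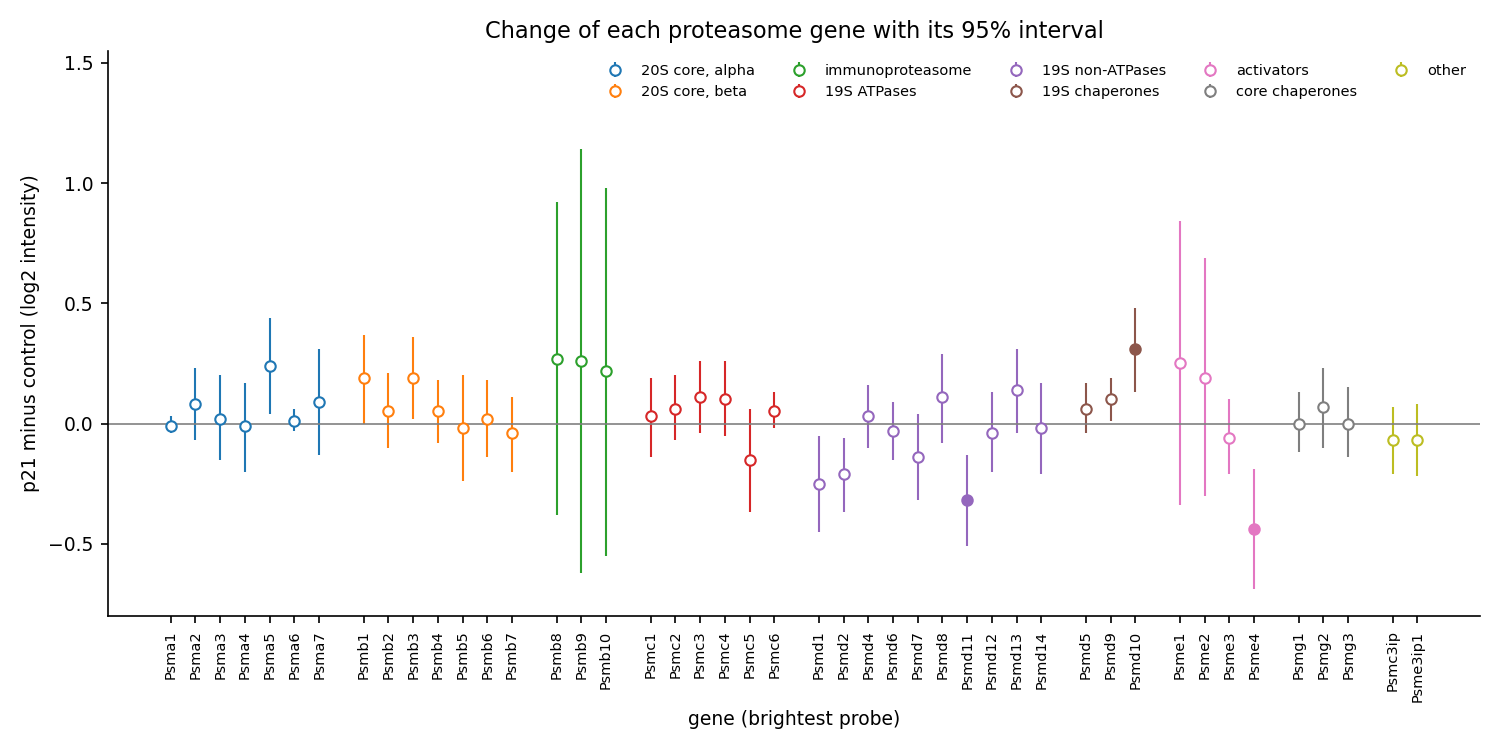
Change in each of the 45 genes (p21 minus control, log2 intensity, brightest probe) with its 95% interval from limma. Filled points are the 3 genes past adjusted p 0.05 (Psmd11, Psmd10 and Psme4), and the widest intervals belong to Psmb8, Psmb9, Psmb10, Psme1 and Psme2.

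No gene of the 20S core was called. By limma and brightest probe, 2 had an unadjusted p under 0.05 on the higher side and 0 on the lower side. No share over all genes is given at that threshold, so this count and later ones like it have no baseline. The 14 alpha and beta subunit genes had changes between -0.04 and 0.24, with a median of 0.04, and 10 lay above 0. By brightest probe, their 95% intervals together spanned -0.24 to 0.44, that is 1.18-fold lower to 1.36-fold higher. Any larger change lay outside every interval of these brightest probes. A dimmer probe of Psmb7 had an interval of -0.51 to -0.05, which reached below that span. Psma1 and Psma6 read below the median probe in all 8 arrays, between 8.19 and 8.28, so their probes give little room for a change to show.

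In the alpha ring, whose subunits form the gate of the barrel, Psma5 had the smallest adjusted p. Psma5 read 13.08, 13.08, 13.28 and 13.11 in control replicates 1 to 4 and 13.28, 13.30, 13.31 and 13.63 in p21 replicates 1 to 4. The groups met at 13.28, and p21 replicate 4 was the highest (change 0.24 ± 0.09, adjusted p = 0.13). Psma2, another alpha subunit, went from 13.39 ± 0.06 to 13.47 ± 0.09 (adjusted p = 0.55).

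In the beta ring, Psmb3 and Psmb1, structural subunits with no cutting site, had the smallest adjusted p. Psmb3 read 12.82, 12.71, 12.72 and 12.83 in controls and 13.02, 12.83, 12.93 and 13.08 in p21 muscles. The groups touched at 12.83 (change 0.19 ± 0.08, adjusted p = 0.16). Psmb1 read 12.46, 12.24, 12.50 and 12.40 in controls and 12.65, 12.59, 12.43 and 12.67 in p21 muscles, with overlapping groups (change 0.19 ± 0.09, adjusted p = 0.23).

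The cutting subunits of the constitutive core had changes close to 0. Psmb5, the chymotrypsin-like site, read 11.62, 11.39, 11.28 and 11.47 in controls and 11.62, 11.37, 11.36 and 11.34 in p21 muscles. Control replicate 1 and p21 replicate 1 were the highest of their groups (change -0.02 ± 0.10, adjusted p = 0.95). Psmb6, the caspase-like site, read 12.70, 12.68, 12.64 and 12.64 in controls and 12.74, 12.69, 12.57 and 12.75 in p21 muscles. Its whole range over the 8 arrays was 0.18 (change 0.02 ± 0.07, adjusted p = 0.90). Psmb7, the trypsin-like site, read 13.68, 13.50, 13.59 and 13.54 in controls and 13.62, 13.40, 13.59 and 13.54 in p21 muscles (change -0.04 ± 0.07, adjusted p = 0.79). The dimmer Psmb7 probes gave changes of -0.08 ± 0.08 and -0.28 ± 0.11 (adjusted p = 0.66 and 0.14), and none of the 3 was called.

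Counted with its 3 assembly chaperones, the 19S cap held a called rise and a called fall among 19 genes, with a median change of 0.03. The rise was in a chaperone, Psmd10, and the fall in a subunit, Psmd11. The ring of 6 ATPases, which unfold the substrate, had a median of 0.06 and no call by limma, and 0 had an unadjusted p under 0.05. Psmc3 read 12.29, 12.25, 12.29 and 12.22 in controls and 12.43, 12.34, 12.36 and 12.35 in p21 muscles, so the groups did not overlap, by a change of 0.11 ± 0.07 (adjusted p = 0.41). Psmc4 likewise did not overlap, from 12.32 ± 0.03 to 12.43 ± 0.04 (adjusted p = 0.43). In Psmc6, near the floor, p21 replicate 2 read 8.43 and the other 7 arrays lay between 8.26 and 8.30 (change 0.05 ± 0.03, adjusted p = 0.39; 0.30, adjusted p = 0.38, on a background-subtracted scale, where most of the table's lowest value was taken off before log2). Psmc5 went the other way, from 12.08 to 11.93 (adjusted p = 0.42).

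Among the 10 measured non-ATPase subunits, Psmd11 fell. Psmd11 encodes a scaffold subunit of the lid, the part of the cap that removes ubiquitin chains. Psmd11 read 10.23, 10.04, 10.02 and 9.98 in controls and 9.82, 9.56, 9.77 and 9.86 in p21 muscles. Every p21 array was below every control array, with p21 replicate 2 the lowest (10.07 ± 0.11 against 9.75 ± 0.13, 1.25-fold lower, change -0.32 ± 0.09, limma adjusted p = 0.046). The exact two-sided permutation test gave an unadjusted p of 0.0286, the smallest that 4 against 4 arrays allow. Here and below, that p restates that the groups did not overlap and adds no separate support. Of all probes, 7.41% did not overlap on the higher side and 9.34% on the lower. The dimmer Psmd11 probes, at 8.43 and 8.27 in controls, changed by 0.05 ± 0.05 and 0.02 ± 0.03 (adjusted p = 0.66 and 0.76) and were not called. The call was lost when any 1 of the 8 arrays was left out (adjusted p 0.056 to 0.13).

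Psmd2 and Psmd1, the large scaffold subunits that dock ubiquitin carriers, were next in size of fall among the non-ATPases. Psmd2 read 9.20, 8.99, 8.91 and 8.85 in controls and 8.83, 8.71, 8.82 and 8.73 in p21 muscles, without overlap (change -0.21 ± 0.07, adjusted p = 0.096; -0.48 on the background-subtracted scale, adjusted p = 0.089). Psmd1 read 10.01, 9.82, 9.87 and 9.87 in controls and 9.83, 9.40, 9.65 and 9.70 in p21 muscles, with p21 replicate 2 the lowest (change -0.25 ± 0.09, adjusted p = 0.13). With the replicate number as a block both passed (adjusted p = 0.042 for Psmd2 and 0.046 for Psmd1). The number of proteasome probes called lower then went from 2 to 5. Over all 25697 probes, calls in either direction rose too, from 2064 to 3186. The dimmer Psmd2 probe changed by -0.05 ± 0.05 (adjusted p = 0.68). Over the 10 subunits, 7 lay below 0 and 3 above, with a median of -0.03. The ubiquitin receptor Psmd4 (change 0.03 ± 0.06) and the deubiquitinase Psmd14 (-0.02 ± 0.09) were close to 0.

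The chaperones that assemble the base of the cap, Psmd5, Psmd9 and Psmd10, all lay above 0, with a median of 0.10. Psmd10, or gankyrin, which in human cells is also known as an oncoprotein that binds the retinoblastoma protein, rose. Psmd10 read 10.12, 10.37, 10.25 and 10.21 in controls and 10.52, 10.61, 10.45 and 10.60 in p21 muscles. All p21 arrays were above all control arrays (10.24 ± 0.11 against 10.55 ± 0.07, 1.24-fold higher, change 0.31 ± 0.08, limma adjusted p = 0.041; exact permutation p = 0.0286, unadjusted). Its other probes changed by 0.18 ± 0.08 and 0.17 ± 0.07 without a call (adjusted p = 0.21 and 0.15). Leaving out any control array, p21 replicate 1 or p21 replicate 4 ended the call (adjusted p 0.058 to 0.12). Psmd9 read 8.42, 8.50, 8.45 and 8.50 in controls and 8.59, 8.51, 8.62 and 8.54 in p21 muscles, without overlap but by a change of 0.10 ± 0.04 (adjusted p = 0.17; 0.36 on the background-subtracted scale, adjusted p = 0.15), and its dimmer probe by -0.01 ± 0.04.

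**Figure D2:**
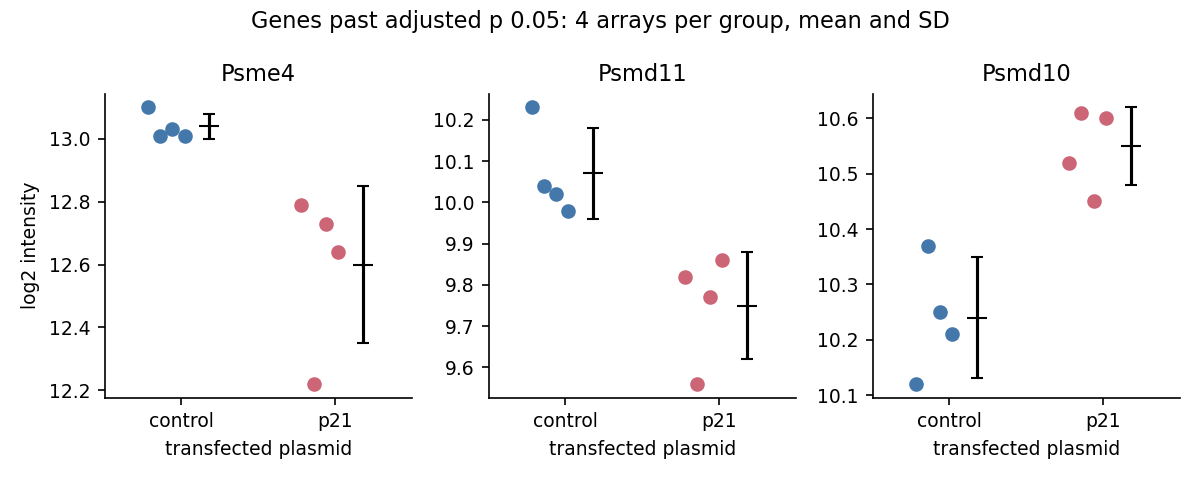
Log2 intensity of Psme4, Psmd11 and Psmd10 in each of 4 control and 4 p21 arrays (points), with the group mean and SD (black bars); each axis is cut to the gene's own range. In each panel the groups do not overlap, and in Psme4 p21 replicate 2 lies apart at 12.22.

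The activators bind the ends of the core in place of the 19S cap. Psme4, or PA200, a single-chain activator that works without ATP, showed the largest fall of the 45 genes on the deposited scale. On the background-subtracted scale its change was -0.46, and that of Psmd2, which was not called, was -0.48. Psme4 read 13.10, 13.01, 13.03 and 13.01 in controls and 12.79, 12.22, 12.73 and 12.64 in p21 muscles. The controls lay within 0.1 of each other, every p21 array was lower, and p21 replicate 2 was the lowest (13.04 ± 0.04 against 12.60 ± 0.25, 1.36-fold lower, change -0.44 ± 0.11, limma adjusted p = 0.037; exact permutation p = 0.0286, unadjusted). The dimmer Psme4 probe did not overlap either, from 8.66 ± 0.07 to 8.50 ± 0.06, but was not called (change -0.16 ± 0.05, adjusted p = 0.062). It passed with the replicate block and among the brighter probes (adjusted p = 0.034 in the latter). Without p21 replicate 2 the change of the brighter probe was -0.32 (adjusted p = 0.015). The call ended when any control array or p21 replicate 4 was left out (adjusted p 0.071 to 0.11) and when the intensity trend was left out (adjusted p = 0.052). Psme3, the nuclear PA28 gamma, read 10.39 ± 0.07 in controls and 10.33 ± 0.03 in p21 muscles (change -0.06 ± 0.07, adjusted p = 0.72).

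The immunoproteasome genes and the PA28 alpha and beta subunits Psme1 and Psme2, which interferon gamma also induces, varied widely from muscle to muscle in both groups. Psmb8 read 9.45, 9.47, 10.27 and 9.58 in controls and 9.90, 8.99, 10.41 and 10.55 in p21 muscles. Psmb9 read 11.09, 11.65, 12.19 and 11.38 in controls and 11.90, 10.42, 12.37 and 12.66 in p21 muscles. Psmb10 read 12.09, 12.43, 13.09 and 12.58 in controls and 12.90, 11.51, 13.25 and 13.39 in p21 muscles. In all 3 the p21 group held both the lowest array, replicate 2, and the highest, replicate 4, and control replicate 3 was the highest control. Psmb9 spanned 2.24, or 4.72-fold, over the 8 arrays, Psmb10 3.67-fold and Psmb8 2.96-fold.

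Psme1 and Psme2 had the same lowest and highest arrays, though control replicate 2 rather than 1 was their lowest control. Psme1 read 12.76, 12.69, 13.54 and 12.91 in controls and 13.26, 12.35, 13.53 and 13.76 in p21 muscles. Psme2 read 9.44, 9.29, 9.91 and 9.45 in controls and 9.46, 9.08, 10.07 and 10.26 in p21 muscles. Over these 5 genes, p21 replicate 2 was the lowest of the 8 arrays in 5 of 5 and p21 replicate 4 the highest in 5 of 5. Over their 7 probes control replicate 3 was the highest control in 7 of 7.

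None of these 5 genes was called by limma, and none had an unadjusted p under 0.05. Psmb8 changed by 0.27 ± 0.30 (adjusted p = 0.67), Psmb9 by 0.26 ± 0.40 (adjusted p = 0.78) and Psmb10 by 0.22 ± 0.35 (adjusted p = 0.79; its dimmer probe 0.37 ± 0.38). Psme1 changed by 0.25 ± 0.27 (adjusted p = 0.66; its dimmer probe 0.13 ± 0.30) and Psme2 by 0.19 ± 0.23 (adjusted p = 0.69). The 95% intervals of the immunoproteasome genes reached from -0.62 to 1.14, so neither a 1.54-fold lower nor a 2.20-fold higher level lay outside all of them. Without p21 replicate 2 the changes were 0.60 for Psmb8, 0.73 for Psmb9, 0.63 for Psmb10, 0.54 for Psme1 and 0.41 for Psme2, still without a call (adjusted p 0.061 to 0.21). Without p21 replicate 4 that of Psmb9 was -0.02 and the others lay between 0.01 and 0.07.

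**Figure D3:**
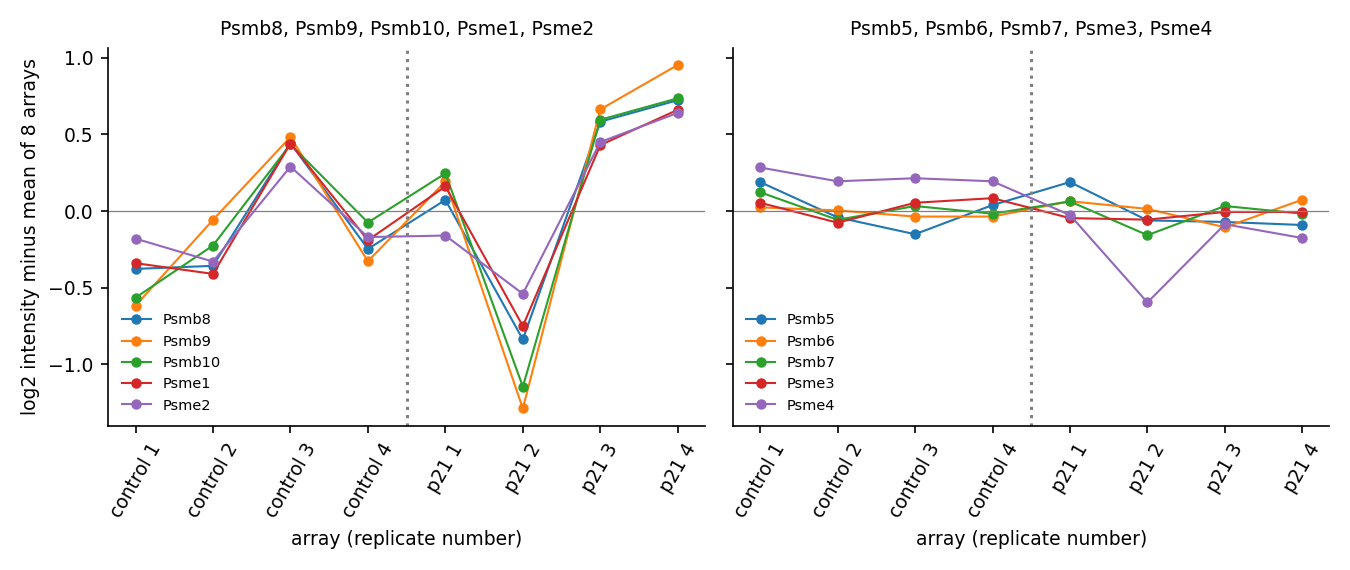
Log2 intensity minus the gene's mean over the 8 arrays, for the interferon-inducible genes (left) and for the constitutive cutting subunits and the other activators (right), by array. On the left all 5 genes are lowest in p21 replicate 2 and highest in p21 replicate 4, while on the right only Psme4 moves by more than 0.5.

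The within-group spread of these genes was wider than that of the core and cap. The pooled SD within groups was 0.43 to 0.78 in the 5 genes, with a median of 0.57. In the 33 genes of the 20S core and 19S cap it was 0.02 to 0.14, with a median of 0.08. The median over the brighter probes of the table was 0.09, and 1.97% of those probes had an SD of 0.43 or more. This comparison of SDs was chosen after the values were seen and is given with no test.

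**Figure D4:**
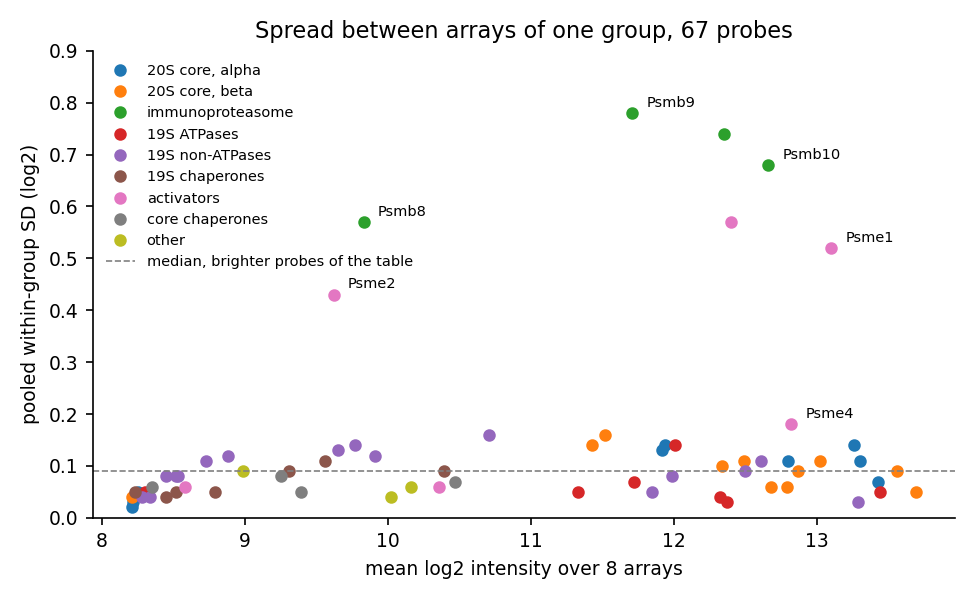
Pooled within-group SD against mean log2 intensity of each of the 67 probes, coloured by class, with the median SD of the table's brighter probes (0.09) dashed. The 7 probes of Psmb8, Psmb9, Psmb10, Psme1 and Psme2 lie at 0.43 to 0.78, above every other proteasome probe at any brightness.

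To ask whether an immunoproteasome subunit changed relative to a constitutive one, the log2 difference of the paired probes was taken in each array and tested exactly over the 70 regroupings of 4 against 4. Psmb8 minus Psmb5 was -2.18, -1.91, -1.01 and -1.90 in controls and -1.72, -2.38, -0.95 and -0.79 in p21 muscles. The groups overlapped throughout (change 0.29 ± 0.45, exact two-sided permutation p = 0.543). Psmb9 minus Psmb6 changed by 0.23 ± 0.56 (exact permutation p = 0.686), and Psmb10 minus Psmb7 by 0.26 ± 0.45 (exact permutation p = 0.571). After adjustment over the 3 pairs every p was 0.686.

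The promoter windows of Psmb8, Psmb9 and Psmb10 are shown in the direction of the gene, from RefSeq on GRCm38.p6. They run from 250 bases before to 50 after the start site. Psmb8 lies at chr17:34197945-34198244 on the + strand, Psmb9 at chr17:34187281-34187580 on the - strand and Psmb10 at chr8:105938343-105938642 on the - strand. Capitals mark a match to the gamma-activated site TTCNNNGAA, the letters that STAT factors bind.
Psmb8: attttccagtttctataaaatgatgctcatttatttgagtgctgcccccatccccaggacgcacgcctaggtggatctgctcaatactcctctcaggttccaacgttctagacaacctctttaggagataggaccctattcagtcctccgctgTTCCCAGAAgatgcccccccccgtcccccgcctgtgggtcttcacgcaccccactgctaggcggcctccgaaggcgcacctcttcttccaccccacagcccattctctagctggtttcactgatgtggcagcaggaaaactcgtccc
Psmb9: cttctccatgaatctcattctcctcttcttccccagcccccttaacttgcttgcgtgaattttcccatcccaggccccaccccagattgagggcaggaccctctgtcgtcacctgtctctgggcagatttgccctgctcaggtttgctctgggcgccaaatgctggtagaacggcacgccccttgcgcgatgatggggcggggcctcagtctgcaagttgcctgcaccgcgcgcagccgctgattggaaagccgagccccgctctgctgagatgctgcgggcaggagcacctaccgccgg
Psmb10: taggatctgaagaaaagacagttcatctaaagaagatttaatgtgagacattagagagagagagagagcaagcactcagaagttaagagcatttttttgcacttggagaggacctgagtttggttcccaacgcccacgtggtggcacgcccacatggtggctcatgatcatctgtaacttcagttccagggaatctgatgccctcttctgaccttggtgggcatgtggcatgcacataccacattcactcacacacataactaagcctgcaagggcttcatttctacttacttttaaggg
The Psmb8 match, TTCCCAGAA, starts 97 bases before the start site, and neither Psmb9 nor Psmb10 held one in this window. Among the other proteasome genes with a window, Psmd2 (TTCTGGGAA) and Psmg1 (TTCTCTGAA) held a match, and their probes did not show the wide spread. Of 32851 RefSeq windows of that length, 8.30% held the letters TTCNNNGAA.

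Both strands were searched, also for the interferon-stimulated response element core GAAANNGAA (in 8.56% of windows) and the antioxidant response element core TGACNNNGC (in 12.4%), and 39 of the 45 genes had a window. Psme1 held an interferon element match, TTCGCTTTC on the strand opposite the gene, 10 bases after its start site, and Psme2 held none of the 3 motifs. The interferon core also matched in Psmb3, Psmb4, Psmc2, Psmd4 and Psmd9, whose probes did not show the wide spread. The antioxidant core, the kind of site that Nfe2l1 and Nfe2l2 use, matched in Psmb5, Psmb6, Psmc6, Psmd9, Psmd12 and Psme4. Of these 6 genes only Psme4 was called, against 4.24% of all genes called higher and 4.79% lower. A match is a run of letters and not a shown binding site. Whether any match bears on the spread or on a call was not tested.

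The chaperones of the core, which help the alpha ring to form, had changes of 0.00 to 0.07, with no call by limma and none at an unadjusted p under 0.05. Psmg2 read 10.34, 10.47, 10.49 and 10.45 in controls and 10.54, 10.57, 10.52 and 10.39 in p21 muscles (change 0.07 ± 0.08, adjusted p = 0.69). Psmg3 went from 9.24 to 9.25 (adjusted p = 0.98) and Psmg1 stayed at 9.39 in both groups (adjusted p = 0.98). The genes matched only by symbol behaved alike: Psmc3ip, a recombination factor, changed by -0.07 ± 0.06 (adjusted p = 0.59), and Psme3ip1, which binds PA28 gamma, by -0.07 ± 0.07 (adjusted p = 0.62).

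Genes that work with the proteasome but fall outside the symbol pattern were likewise called about as often as all genes. Of 24 listed partners, assembly factors and regulators, 17 were measured, 0 were called higher and 1 lower by limma, with a median change of 0.01, against 4.24% of all genes called higher and 4.79% lower. At an unadjusted p under 0.05 there was 1 on the higher side and there were 3 on the lower. The former was Zfand2a, a stress protein that binds the cap (change 0.20 ± 0.07, adjusted p = 0.11). Ubqln4, a shuttle that carries ubiquitinated proteins to the cap, fell from 10.33 ± 0.15 to 9.88 ± 0.19 (1.37-fold lower, adjusted p = 0.029). Nfe2l1, the transcription factor that raises proteasome genes when the proteasome is inhibited, went from 12.88 ± 0.09 to 12.57 ± 0.16 without overlap and without a call (change -0.31 ± 0.09, adjusted p = 0.060). Pomp, the chaperone that completes the core, read 13.46 ± 0.11 and 13.61 ± 0.23. Of 6 genes for ubiquitin and its activating enzymes only Uba6 was measured, below the median probe in every array.

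The muscle ubiquitin ligases that mark proteins for the proteasome in wasting held 1 call, against 4.79% of all genes called lower. Of 9 listed, 8 were measured, and the gene called lower was Fbxo32 or atrogin-1, which read 11.04 ± 0.31 in controls and 10.24 ± 0.50 in p21 muscles (1.75-fold lower, adjusted p = 0.048). Trim63, or MuRF1, went from 10.51 ± 0.17 to 10.02 ± 0.31 (adjusted p = 0.061) and Fbxo40 from 8.90 ± 0.08 to 8.65 ± 0.14 (adjusted p = 0.054). At an unadjusted p under 0.05, 5 of the 8 lay lower and 0 higher. The share of all genes at that threshold is not given here, so this count has no baseline. The median change of the 8 was -0.19, against -0.004 over all genes.

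The peptide-loading side of MHC class I showed 1 call among 10 genes, against 4.24% of all genes called higher, and a median change of 0.20. Pdia3, a chaperone of the loading complex and of glycoproteins in general, rose from 11.57 ± 0.30 to 12.31 ± 0.28 (1.67-fold, adjusted p = 0.023). The next were Calr, or calreticulin (change 0.30 ± 0.09, adjusted p = 0.062), and the class I heavy chain H2-D1 (0.48 ± 0.15, adjusted p = 0.069), neither of which was called. Tap1, which carries peptides into the endoplasmic reticulum, read 9.29, 9.48, 10.14 and 9.46 in controls and 9.87, 8.84, 10.11 and 10.34 in p21 muscles. It was named after its values were seen, for being lowest in p21 replicate 2 and highest in p21 replicate 4 as the immunoproteasome genes were. Of the 10 genes only Tap1, Tap2 and Nlrc5 were lowest in p21 replicate 2, while Pdia3 and Calr were highest there, and the mean of the list was lowest in control replicate 1, below the 10.14 of p21 replicate 2.

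Most genes of the interferon gamma response list were also lowest in p21 replicate 2. Its 13 measured genes of 14 averaged 10.99, 11.30, 11.67 and 11.11 in control replicates 1 to 4 and 11.47, 10.31, 11.73 and 11.76 in p21 replicates 1 to 4. The mean of Psmb8, Psmb9, Psmb10, Psme1 and Psme2 was 10.96, 11.11, 11.80 and 11.18 in controls and 11.48, 10.47, 11.93 and 12.12 in p21 muscles. Both were lowest in p21 replicate 2 and highest in p21 replicate 4, with control replicate 3 the highest control. Of the 13 genes, 9 were lowest in p21 replicate 2 and 5 highest in p21 replicate 4, while the receptor genes Ifngr1 and Ifngr2 were highest in p21 replicate 2. Being lowest there was not particular to this list. It also held for 8 of the 17 proteasome partners and 5 of the 8 muscle ubiquitin ligases. It held for 3 of 10 muscle fibre, 1 of 9 macrophage and 0 of 7 fibroblast markers. The share over all probes is not given here. Between groups the interferon gamma list had a median change of 0.10. By limma, 0 of its genes were called higher (2 at an unadjusted p under 0.05) and 1 lower. Over all genes, 4.24% were called higher and 4.79% lower. The gene called lower was Jak2, a kinase of the receptor (change -0.50 ± 0.13, adjusted p = 0.039). Named after their values were seen, Irf1, a transcription factor of this response, ranged from 11.74 in p21 replicate 2 to 13.67, and the GTPase gene Igtp read 10.55 in p21 replicate 2 and 13.63 to 14.65 in the other 7 arrays.

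**Figure D5:**
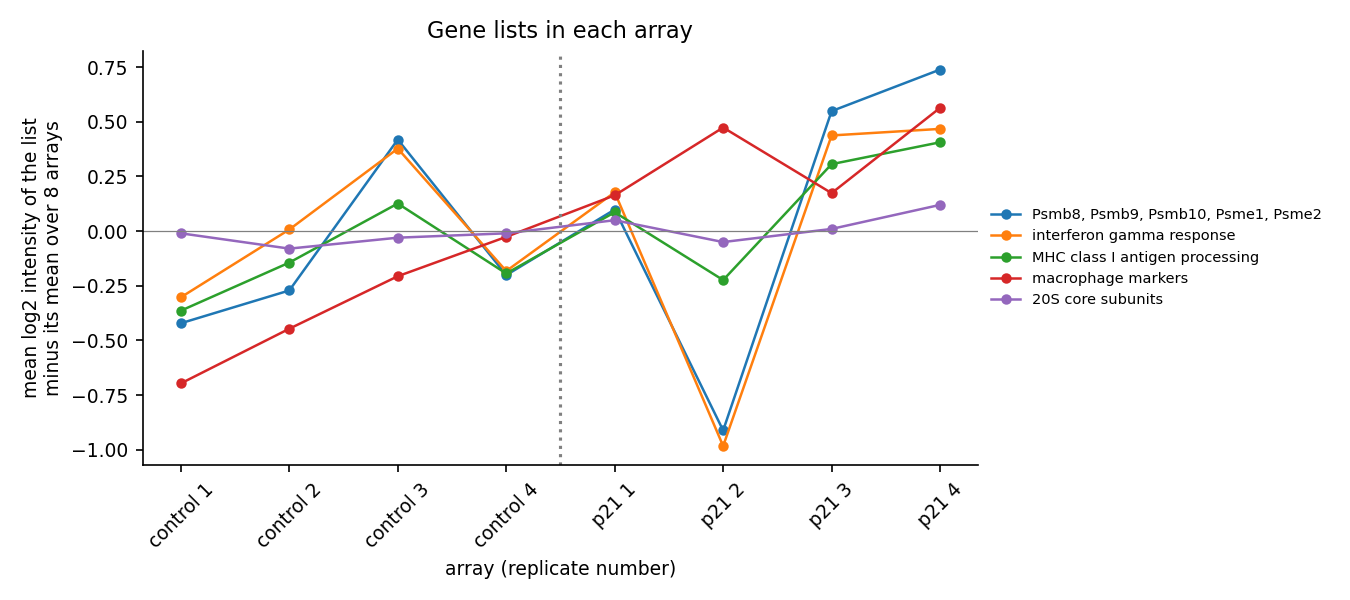
Mean log2 intensity of each gene list in each array, minus the list's mean over the 8 arrays. The 5 interferon-inducible proteasome genes and the interferon gamma list both drop in p21 replicate 2 (means of 10.47 and 10.31), while the macrophage markers there average 10.71, above every control array, and the 20S core stays between 12.11 and 12.31.

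Immune cells also carry immunoproteasomes, so their markers are set beside these values. Over all genes, 4.24% were called higher and 4.79% lower. No share over all genes is given for an unadjusted p under 0.05. Of 12 listed macrophage markers, 9 were measured and 4 were called higher (Fcgr1, Lyz2, Aif1 and Tyrobp). Their mean was 9.54 to 10.21 in control arrays and 10.40 to 10.80 in p21 arrays, without overlap, and in p21 replicate 2, where Psmb8, Psmb9 and Psmb10 were lowest, it was 10.71. Of 12 T and NK cell markers 11 were measured and none was called by limma (3 higher and 0 lower at an unadjusted p under 0.05); their mean was 8.49 to 8.74 in controls and 8.62 to 9.05 in p21 muscles. Among controls that mean was highest in control replicate 3 (8.74), with control replicate 4 close by (8.73). It was lowest among p21 arrays in p21 replicate 2 (8.62) and highest of all in p21 replicate 4. The immunoproteasome genes shared these ranks, but p21 replicate 2 was their lowest array of all. For the T and NK mean, control replicates 1 and 2 were lower still (8.49 and 8.52). Of the 11 markers, 6 were highest in p21 replicate 4 and 1 was lowest in p21 replicate 2. Nkg7, a cytotoxic cell gene, was named after its values were seen. It read 9.09, 9.14, 10.03 and 9.73 in controls and 9.89, 9.18, 10.45 and 10.81 in p21 muscles. Its lowest array was control replicate 1 and its highest p21 replicate 4. Cd4, Cd8a, Gzmb and Ncr1 lay below the median probe in every array. The 4 measured B cell markers of 5 averaged 8.38 to 8.43 and 8.40 to 8.50, with no call by limma, 0 at an unadjusted p under 0.05, and with Cd79a and Pax5 below the median probe throughout. Endothelial markers averaged 9.54 to 9.76 in controls and 9.37 to 9.50 in p21 muscles, and 2 of 7 were called lower (Tek and Vwf). Fibroblast markers averaged 10.95 to 11.50 and 11.35 to 12.02, with 1 of 7 called higher (Col3a1). Among the muscle fibre markers 1 of 10 was called lower (Myh4). The part of these cell types in the proteasome values was not tested.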

How the data were processed

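Total RNA of 8 tibialis anterior samples, 4 per group by their titles, was extracted with TRIzol and columns, amplified and biotin-labelled for single-colour Illumina arrays, per the labels' protocols. The authors deposited log2 intensities. The sources used here do not give the array software, background correction or normalization. After sorting, arrays differed by no more than 0.00073, so the table was already quantile normalized, which removes differences in total RNA. No probe was filtered.

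Symbols came from the platform annotation: 23978 of 25697 probes had 1 symbol, 0 several and 1719 none. limma 3.58.1 in R 4.3.3 (lmFit, eBayes with an intensity trend) tested p21 minus control over all probes, two-sided, with Benjamini-Hochberg adjustment and a threshold of 0.05. Exact permutation tests used all 70 regroupings and were unadjusted except over the 3 subunit pairs. On simulated data with 25697 probes, 72% of 100 probes changed by 0.5 and 97% of 100 changed by 1 were recovered. There were 9 false calls among 178. The changed probes were drawn from those brighter than the median probe, with noise independent between probes. The rates therefore do not cover dim probes, and they are averages over probes of narrow and wide spread.

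Same-numbered arrays deviated together (correlations 0.483, 0.264, 0.212 and 0.181, all above 0.1), so the replicate number was tried as a block. This pairing comes from the data: higher values were found for control replicate 3 with p21 replicate 4 (0.448) and for control replicate 4 with p21 replicate 2 (0.297).

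The text names all cutting subunits and activators, called genes, the 2 genes of smallest adjusted p per class and up to 3 per list; Psmc4, Psmc5, Psmd1, Psmd4, Psmd14, Psmg1, Pomp, Tap1, Tap2, Nlrc5, Ifngr2, Irf1, Igtp, Nkg7 and the called cell markers were added after their values were seen. Members and lists were chosen with earlier results of these data known. Alternatives were the block, repeated quantile normalization, median centring, brighter probes, other eBayes settings, array weights, an offset of 16, a background-subtracted scale, leaving out each array, thresholds of 0.01 and 0.1, and averaging a gene's probes.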

Additional observations from a re-analysis of the deposited data

Results flagged for a closer look

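Among 56 groups of 4 arrays, from 28 genes or subunit differences, 6 had an array set apart by Dixon's criterion. The criterion weighs a gap against the group's own range, so a small gap can count. Independent groups would give about 1 in 20 by chance. The differences reuse some of the genes, and some genes were picked by their values, so that rate is only a guide. Psmb8 read 10.27 in control replicate 3, with the nearest control at 9.58. Psmb5 read 11.62 in p21 replicate 1, with the nearest p21 array at 11.37. Psmc3 also stood out in p21 replicate 1, at 12.43 against 12.36. Psmc6 read 8.43 in p21 replicate 2, with the nearest at 8.30, close to the floor. Psma5 stood out in both groups, at 13.28 in control replicate 3 against 13.11 and at 13.63 in p21 replicate 4 against 13.31.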

How the results depend on the processing

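The calls of Psme4, Psmd11 and Psmd10 were close to the threshold. Against 1 probe higher and 2 lower, the replicate block gave 5 lower and eBayes without the trend 1 lower. Over all probes these 2 settings gave 3186 and 2000 calls, against 2064. A threshold of 0.01 gave 0 higher and 0 lower, and a threshold of 0.1 gave 4 lower. The shares over all probes at these thresholds are not given here. Leaving out 1 array gave 0 to 1 higher and 0 to 1 lower, and over all probes 159 to 2162 calls against 2064. Over 17 alternatives the changes kept their direction, with adjusted p from 0.015 to 0.11 for Psme4, 0.027 to 0.13 for Psmd11 and 0.024 to 0.12 for Psmd10. Leaving out 1 array moved Psmb9 minus Psmb6 (0.235) to between -0.017 and 0.709 and Psmb9 (0.258) to between -0.015 and 0.731, the lower values both without p21 replicate 4. Uncalled changes near 0 also took either sign: Psmb5 from -0.084 to 0.042, Psmb7 from -0.071 to 0.002 and Psmg3 from -0.028 to 0.052. The replicate block changed the calls of Psmd1, Psmd2 and the dimmer Psme4 probe and no other proteasome call; the exact tests allow no paired p under 0.125 with 4 pairs. The cause was not tested. On the background-subtracted scale dimmer probes changed more, with 0.302 against 0.053 for Psmc6, 0.36 against 0.10 for Psmd9 and -0.481 against -0.215 for Psmd2, none called. Values near the floor of 8.13 limit what dim probes can show.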
